A study of Mus musculus with 2 samples.

Results

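The genes examined were Six3, Emx2, Otx2, En2, Gbx2, Egr2 and Phox2a, 7 transcription factor genes that mark the forebrain, the midbrain and the hindbrain. Their regulatory regions were taken as the ATAC-seq consensus intervals whose nearest protein-coding transcription start site (TSS) belonged to one of them, 101 of the 119502 intervals in mm10. The measurements came from live neural progenitors (NPs) that were sorted for mKate2, a red fluorescent protein placed behind Olig2, from a single mouse embryonic stem cell line (Olig2-mKate2). Olig2 is a transcription factor of motor neuron progenitors (pMN), which the study produced with a protocol for spinal cord differentiation. By the study's account the sorted population also held newly born motor neurons and some cells with both OLIG2 and NKX2.2, a factor of the more ventral p3 progenitors.

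All cells followed one protocol. They received 10 ng/ml bFGF and 5 μM LGK for the first 2 days. For the next 20 h they received bFGF at the same dose with 5 μM CHIR99021, which activates Wnt signalling, 10 μM SB-431542, which blocks TGF-beta and activin receptors, and 2 μM DMH1, which blocks BMP receptors. From then to day 5 they received 100 nM retinoic acid and 100 nM SAG, which activates Sonic hedgehog (Shh) signalling. There was 1 group of 2 replicates, with no control or second condition, so no contrast between conditions was made. The labels did not say whether the replicates came from separate cultures, and the spread between them may be technical. In a bulk assay, weak signal in all cells and strong signal in a few cells cannot be told apart.

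The neural tube is divided along its length by transcription factors that respond to Wnt, FGF and retinoic acid. Six3 and Emx2 are homeobox genes of the anterior forebrain and the dorsal telencephalon, and Otx2 covers the forebrain and midbrain. Otx2 and Gbx2 repress each other and set the midbrain-hindbrain boundary, where En2 is also expressed. Egr2 (Krox20) is a zinc finger factor of alternating hindbrain segments, and Phox2a is a homeobox factor of cranial motor and noradrenergic neurons. Wnt activity and retinoic acid give cells a posterior character, and spinal progenitors are typically without expression of the most anterior of these factors. Open chromatin at a gene is not a measure of its transcription.

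Replicate 1 held 31876165 counts in intervals and replicate 2 held 31672240. Across the 101 intervals the counts ran from 6 to 2519 in replicate 1 and from 8 to 2349 in replicate 2, so none was without counts. Pairs of counts below are raw counts for replicate 1 and then replicate 2. Density is the count divided by the library's size factor and by the interval's length in kb, and is given as the mean ± SD over the 2 libraries.

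Sequences are shown for the densest distal interval of Emx2, Otx2 and Gbx2, and for the upstream En2 interval, because the density of these regions was above that of the promoters of the same genes or close to it. Each is the 300 bases at the centre of the interval on the forward strand of mm10. Positions are chr19:59588195-59588494 for Emx2, chr14:48841262-48841561 for Otx2, chr5:28162062-28162361 for En2 and chr1:89927116-89927415 for Gbx2. The second densest distal interval of En2 is shown because the densest covers a UTR. The Six3 promoter, 250 bases before the RefSeq start on the plus strand at chr17:85620584-85620833, is shown because no interval covered it. Capitals mark matches on either strand to 8 short motifs that are described with the motif counts.
Six3 promoter without an interval: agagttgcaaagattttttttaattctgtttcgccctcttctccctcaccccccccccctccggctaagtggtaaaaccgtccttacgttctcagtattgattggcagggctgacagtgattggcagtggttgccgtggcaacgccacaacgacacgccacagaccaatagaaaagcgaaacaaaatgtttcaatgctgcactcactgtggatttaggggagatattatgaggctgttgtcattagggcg
Emx2 downstream element: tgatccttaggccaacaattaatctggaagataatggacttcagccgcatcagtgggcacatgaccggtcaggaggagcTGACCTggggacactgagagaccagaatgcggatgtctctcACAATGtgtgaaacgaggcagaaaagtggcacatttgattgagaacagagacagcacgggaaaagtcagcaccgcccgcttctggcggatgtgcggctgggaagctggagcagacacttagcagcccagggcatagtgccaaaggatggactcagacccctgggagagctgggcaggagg
Otx2 upstream element: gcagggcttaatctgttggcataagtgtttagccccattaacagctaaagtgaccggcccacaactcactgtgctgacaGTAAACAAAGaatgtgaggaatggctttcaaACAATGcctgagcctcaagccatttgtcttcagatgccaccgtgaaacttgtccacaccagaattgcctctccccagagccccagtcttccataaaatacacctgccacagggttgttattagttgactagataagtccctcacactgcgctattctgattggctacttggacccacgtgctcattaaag
En2 upstream element: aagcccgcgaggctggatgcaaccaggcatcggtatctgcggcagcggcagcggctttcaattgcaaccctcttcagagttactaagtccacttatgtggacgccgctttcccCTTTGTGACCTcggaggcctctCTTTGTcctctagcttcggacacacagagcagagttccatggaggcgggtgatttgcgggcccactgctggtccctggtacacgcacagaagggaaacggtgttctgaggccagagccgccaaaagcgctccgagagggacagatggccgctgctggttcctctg
Gbx2 downstream element: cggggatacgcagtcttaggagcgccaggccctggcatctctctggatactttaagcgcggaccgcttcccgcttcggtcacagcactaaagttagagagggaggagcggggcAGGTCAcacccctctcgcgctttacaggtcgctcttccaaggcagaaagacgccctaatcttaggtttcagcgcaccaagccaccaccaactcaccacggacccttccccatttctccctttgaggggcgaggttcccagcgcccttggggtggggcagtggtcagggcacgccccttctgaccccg

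How these promoters ranked depended on whether signal was taken per kb or as a summed count. A TSS interval, one that overlapped an annotated start of a protein-coding transcript, was present for 6 of the 7 genes, and such an interval was present for 66.7% of the 21938 protein-coding genes. Promoter density was highest at En2 and Gbx2, lower at Egr2, Emx2, Phox2a and Otx2, and was set to 0 for Six3, which had no TSS interval. Of the 7 genes, 3 lay above the median of 487 normalised counts per kb over all protein-coding genes, a line that 50% of genes exceed. The median of the 7 genes was 390 ± 20.0 (SD, n = 2). With the summed count of a gene's TSS intervals in place of density the direction turned. Then 5 of the 7 genes lay above the median of all genes, with a median of 1216 normalised counts against 651. Otx2 was among the 5 with its 3 intervals summed (907), and none of the 3 passed 651 alone. All 8 TSS intervals of these genes, 3 of which belonged to Otx2, were below the median of 799 over all TSS intervals.

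**Figure D1:**
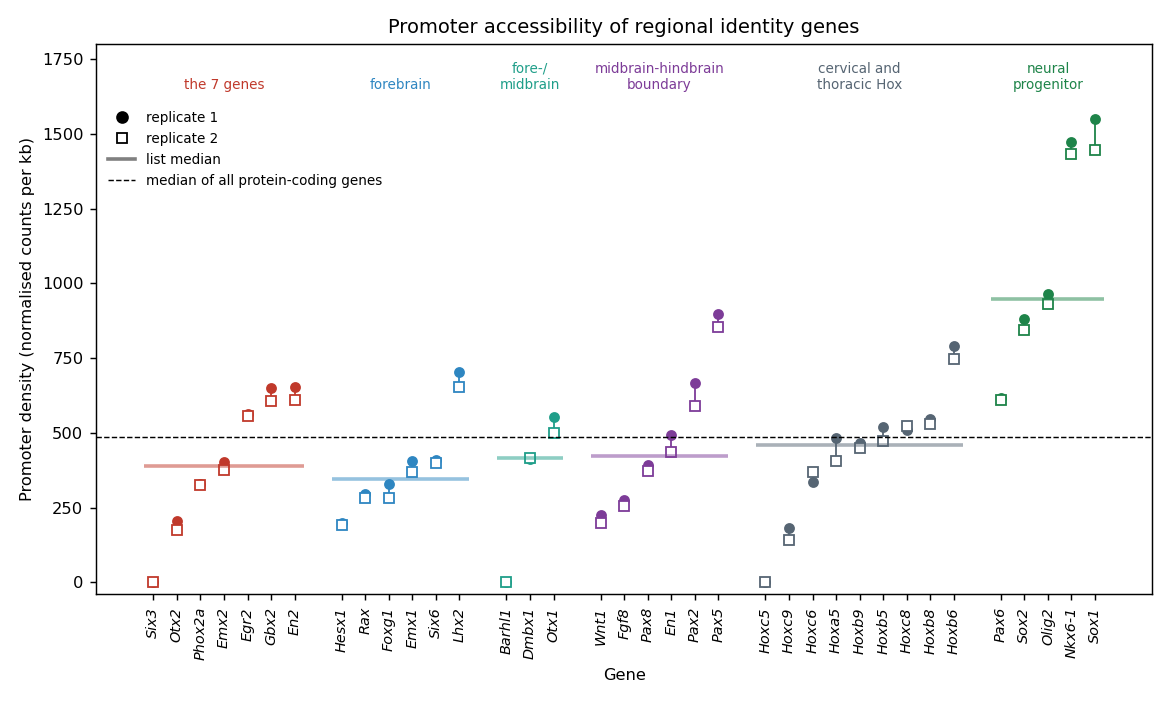
Promoter density in normalised counts per kb (vertical axis) of each gene (horizontal axis), with filled circles for replicate 1, open squares for replicate 2, a bar for the median of each list and a dashed line for the median of all protein-coding genes (487). The hindbrain list is not drawn. The 7 genes lie between 0 (Six3) and 632 (En2), and all 5 neural progenitor genes lie above the dashed line.

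Six3, a forebrain and eye homeobox gene on chromosome 17 (85613608 to 85629302, plus strand), had the most intervals, 25. The sequence nearest to its starts was long, 303 kb. Per 100 kb it had 8.26 intervals, below Gbx2 (16.0) and En2 (13.0). With only the 5′ end of each gene as its start, Gbx2 had 42 intervals and Six3 had 25. None of the 3 annotated starts of Six3 was covered. The nearest intervals were 1143, 436 and 239 bases from these starts. Counts on either side were not low. The interval that begins 239 bases after the last start, over coding sequence at chr17:85621270-85622281, had 385 and 341 counts, or densities of 381 and 337 in the 2 libraries. When an interval within 1 kb of a start counted as a TSS interval, the Six3 promoter density was 359 instead of 0.

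The densest Six3 interval lay inside the gene and over an exon of the antisense transcript gene Six3os1. It had 988 and 857 counts and a density of 639 ± 64.6 (SD, n = 2). The next was at the end of the gene, over its UTR, at chr17:85628577-85629198, with 346 and 353 counts and a density of 562 ± 7.63 (SD, n = 2). Another, intergenic and 24.4 kb downstream at chr17:85645427-85646610, had 598 and 559 counts and a density of 489 ± 23.6 (SD, n = 2). The ATAC signal of Six3 was spread over the gene body and its flanks. The 7 distal intervals within 10 kb of a start had densities from 267 to 639, and the 18 farther away from 38.8 to 489. The farthest interval of any of the 7 genes, 229 kb upstream in an intron of Camkmt, held 7 and 15 counts.

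Emx2, a homeobox gene that patterns the cortex, lies on chromosome 19 (59458372 to 59465357, plus strand). Its TSS interval, chr19:59457433-59460550, was 3118 bp long, covered both annotated starts and also overlapped the antisense gene Emx2os. It had 1259 and 1172 counts and a density of 390 ± 20.0 (SD, n = 2), which exceeds 46.0% of protein-coding genes, those without a TSS interval counted as 0, and 23.7% of TSS intervals. The highest density at the locus was far from the gene, although the TSS interval held more counts. An intergenic interval 129 kb downstream, chr19:59588073-59588616, had 631 and 623 counts and a density of 1153 ± 11.1 (SD, n = 2), the highest of all 101 intervals and above 98.7% of all distal intervals. Its neighbour 126 kb downstream, chr19:59585846-59586344, had 362 and 314 counts and a density of 677 ± 68.4 (SD, n = 2). In Emx2os, 3.90 kb upstream, chr19:59454078-59454470 had 189 and 177 counts and a density of 466 ± 21.9 (SD, n = 2). These 3 intervals were each denser than the promoter, and the remaining 14 distal intervals ranged from 38.0 to 256. Assignment to Emx2 rests on the nearest start alone and does not show which gene an interval acts on.

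Otx2, on the minus strand of chromosome 14 (48657677 to 48673819), had the weakest promoter of the 6 genes with a TSS interval. Its 8 annotated starts were partly covered by 3 intervals, and 4 of the starts lay 57 to 160 bases outside one. The interval over the starts within the gene, chr14:48664861-48666882, had 603 and 501 counts and a density of 273 ± 35.8 (SD, n = 2). The one at the most upstream start, chr14:48672817-48674938, had 300 and 242 counts and a density of 128 ± 19.4 (SD, n = 2). Between them, chr14:48667572-48668202 had 79 and 89 counts and a density of 133 ± 11.1 (SD, n = 2). Together they gave 190 ± 22.3 (SD, n = 2), above 38.9% of protein-coding genes, those without a TSS interval again counted as 0. Among TSS intervals, the 3 were above 16.6%, 7.5% and 7.9%, in the order given. With only the 5′ end of the gene as its start, the value fell to 128.

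The densest distal intervals of Otx2 overlapped Otx2os1, a long noncoding RNA gene on the other strand. The first, 167 kb upstream at chr14:48841038-48841784, had 320 and 321 counts and a density of 429 ± 0.699 (SD, n = 2). The next, 35.1 kb upstream at chr14:48708877-48710972, had 701 and 700 counts and a density of 334 ± 0.531 (SD, n = 2). The last, in the Otx2 gene 1.26 kb upstream of its nearest start at chr14:48668900-48669248, had 118 and 113 counts and a density of 331 ± 10.3 (SD, n = 2). All 3 were denser than the combined promoter in both libraries. The median of the 18 distal intervals of Otx2 was 122, beside 123 over all distal intervals of the genome.

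**Figure D2:**
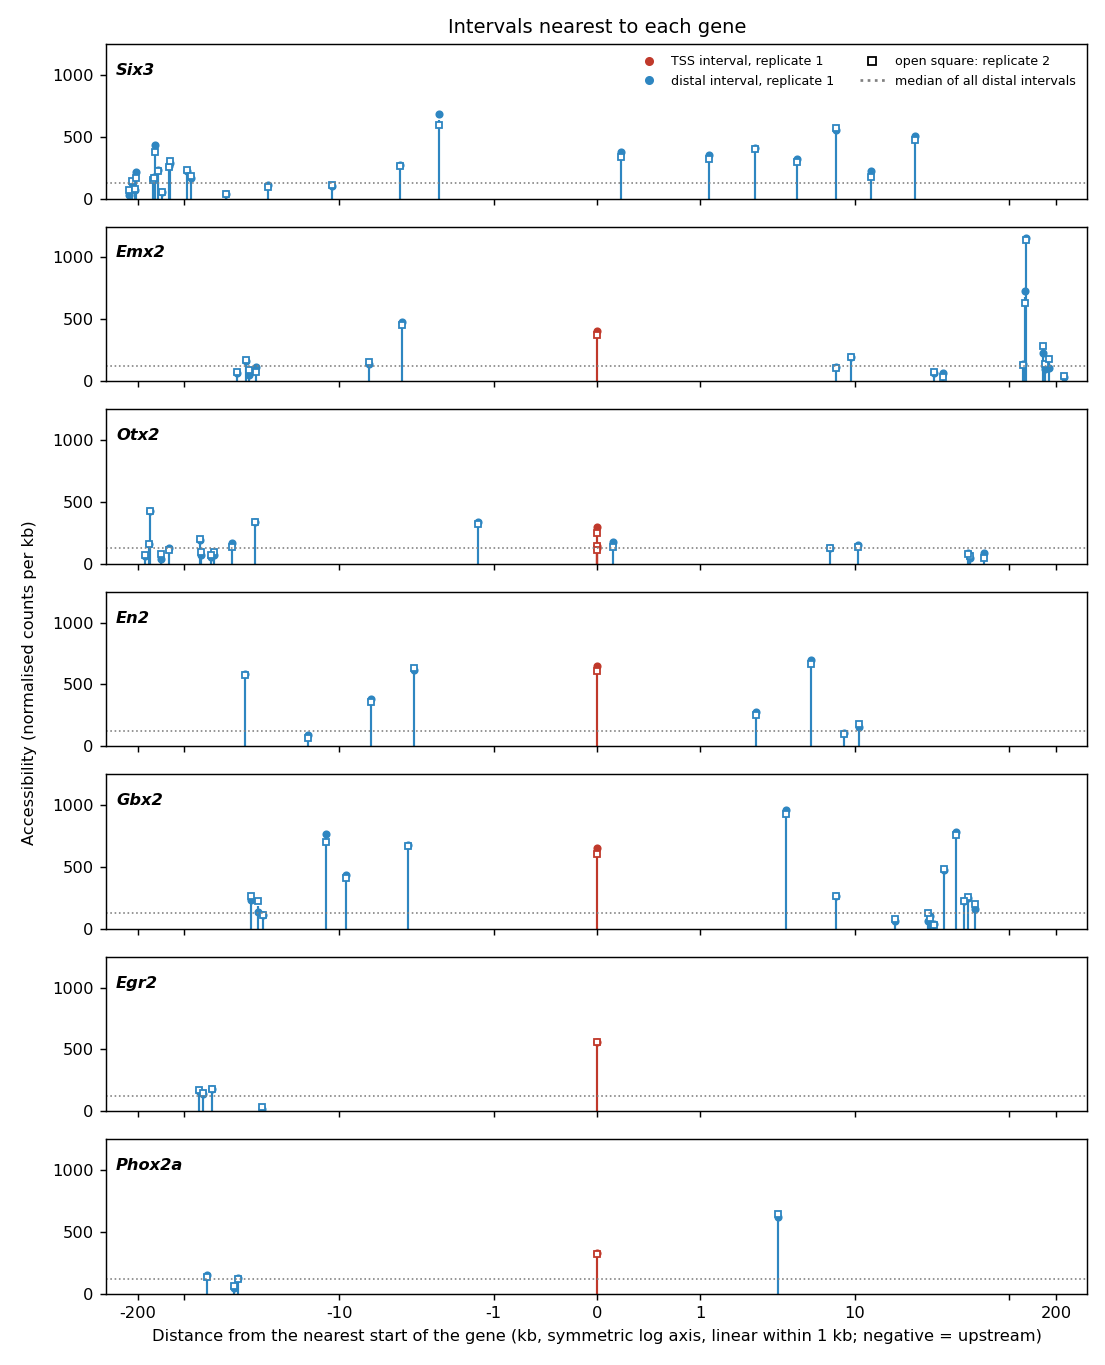
Density in normalised counts per kb (vertical axis) of each interval against its distance from the nearest start of the gene in kb (horizontal axis, symmetric log scale, upstream negative), one panel per gene, with filled circles for replicate 1, open squares for replicate 2, red for TSS intervals, blue for distal intervals and a dotted line at the median of all distal intervals (123). Emx2 has its tallest interval 129 kb downstream (1153), Six3 has no red mark, and Egr2 has no distal interval above 180.

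En2, the engrailed homeobox gene of the midbrain-hindbrain region and the cerebellum, had the highest promoter density of the 7 genes. It lies on chromosome 5 (28165694 to 28172166, plus strand), and its TSS interval, chr5:28165281-28167372, had 1364 and 1279 counts and a density of 632 ± 29.1 (SD, n = 2). The locus was compact, with 9 intervals of which 8 had a mean normalised count over 100, and 5 of its 8 distal intervals lay within 10 kb of the start. The densest, over the UTR at chr5:28170930-28171281, had 244 and 234 counts and 679 ± 20.5 normalised counts per kb (SD, n = 2). Upstream by 3.29 kb, the intergenic interval chr5:28162018-28162405 had 238 and 244 counts and a density of 621 ± 10.6 (SD, n = 2). The third, 40.8 kb upstream at chr5:28123147-28124909, had 1024 and 1014 counts and a density of 578 ± 4.34 (SD, n = 2). The UTR interval was above the promoter in both libraries (693 and 665 against 652 and 611), by a margin close to the SDs. The 3.29 kb interval and the promoter overlapped in their library values.

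Gbx2, the anterior hindbrain gene that opposes Otx2, carried the most signal of the 7 loci, with 7488 and 7368 counts over 18 intervals. It lies on the minus strand of chromosome 1 (89927956 to 89931179). Its TSS interval, chr1:89929125-89932996, was 3872 bp long and had 2519 and 2349 counts, a density of 629 ± 31.4 (SD, n = 2). Just past the end of the gene, chr1:89926957-89927573 had 591 and 574 counts and a density of 944 ± 20.0 (SD, n = 2), above 97.8% of distal intervals. An intronic interval of Agap1, chr1:89885320-89886276, 44.9 kb downstream of the Gbx2 start, had 746 and 722 counts and a density of 767 ± 18.2 (SD, n = 2). The third, 12.2 kb upstream at chr1:89943336-89943486, had 115 and 106 counts and a density of 732 ± 42.6 (SD, n = 2). All 3 were denser than the promoter in both libraries, and so was another interval 3.59 kb upstream at chr1:89934764-89935016, with 171 and 169 counts. That last interval was added after its values were seen. Of the 18 intervals, 13 had a mean normalised count over 100, as did 38.8% of all intervals. The number depends on the annotation, since with only the 5′ end of each gene as its start Gbx2 had 42 nearest intervals.

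Egr2, the hindbrain segment gene, differed from the others in where its signal lay. On chromosome 10 (67535475 to 67542188, plus strand), a single TSS interval of 3727 bp, chr10:67535349-67539075, covered all 6 annotated starts and had 2093 and 2079 counts, a density of 560 ± 2.98 (SD, n = 2). This interval held 88.1% ± 0.365 of the normalised counts of the locus (SD, n = 2). The share was 14.9 to 37.2% in the other 5 genes with a TSS interval, and was not taken over all genes. The 4 distal intervals of Egr2 were all over 30 kb upstream and intergenic. The 3 densest were 66.1 kb upstream at chr10:67468793-67469376 with 104 and 106 counts, 80.8 kb upstream at chr10:67454021-67454715 with 112 and 117, and 76.3 kb upstream at chr10:67458791-67459174 with 54 and 56. Their densities, in that order, were 180 ± 2.32, 165 ± 4.99 and 143 ± 3.60 (SD, n = 2 each). The remaining one had 6 and 9 counts.

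Phox2a, which specifies noradrenergic and some cranial motor neurons, had a short and weak TSS interval. On chromosome 7 (101818313 to 101822726, plus strand), chr7:101817857-101818562 was 706 bp long and had 232 and 229 counts, a density of 326 ± 3.19 (SD, n = 2). The main signal was at the other end of the gene. The interval chr7:101821527-101823391 overlapped Phox2a coding sequence and the gene Inppl1, and had 1152 and 1201 counts and a density of 631 ± 18.2 (SD, n = 2). Signal here cannot be divided between the 2 genes. The other 3 intervals lay 45.1 to 71.5 kb upstream within Clpb, a gene of mitochondrial protein quality control, with 31 and 28, 29 and 38, and 78 and 77 counts from the farthest to the nearest, and with densities from 57.7 to 143.

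In order of promoter density, En2 and Gbx2 differed by 3.08 normalised counts per kb, less than their SDs, and their library values overlapped. All other neighbours in the order (Gbx2 and Egr2, Egr2 and Emx2, Emx2 and Phox2a, Phox2a and Otx2) had library values that did not overlap. Six3 came last by the rule that sets a gene without a TSS interval to 0. With intervals within 1 kb of a start counted, it was at 359, above Phox2a (326) and Otx2 (186). The smallest of those gaps were 63.4 between Emx2 and Phox2a and 68.9 between Gbx2 and Egr2. With 2 libraries and no second group, no test of the order was made. The TSS intervals of Emx2, Gbx2 and Egr2 were each over 3 kb long.

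Distal intervals held most of the normalised counts at each gene but Egr2, where the TSS interval held 88.1%. The same share was not taken over all genes. Of the 93 distal intervals, 49 (52.7%) had a mean normalised count over 100, against 31.2% of all distal intervals. A count limit favours long intervals, and the 93 had a median length of 622 bp, against 463 bp over all distal intervals. Among all 101 intervals the number was 56 (55.4%), against 38.8% of the whole set. By gene it was 13 of 25 at Six3, 8 of 18 at Emx2 and 9 of 21 at Otx2. It was 8 of 9 at En2, 13 of 18 at Gbx2, 3 of 5 at Egr2 and 2 of 5 at Phox2a. The median density of the 93 was 167 ± 5.26, against 123 ± 2.01 over all distal intervals (SD, n = 2 each). The difference was larger close to the genes. The 24 distal intervals within 10 kb of a start had a median of 347, against 139 over all distal intervals that near. The 69 farther away had a median of 143, against 120. Of the 24, 7 were at Six3, which had no TSS interval. The 24 included a Six3 interval 239 bases from a start and an Otx2 interval 160 bases from a start. By gene the near median was 158 at Otx2, 170 at Emx2, 359 at Six3, 369 at En2 and 546 at Gbx2. Phox2a had 1 near interval (631) and Egr2 had none. Of the 93, 2 had a density over the median of all TSS intervals, at Emx2 and Gbx2, as did 3.16% of all distal intervals. The ratio of the median TSS density to the median distal density was 2.17 ± 0.139 for the intervals of the 7 genes. Over all intervals it was 6.43 ± 0.247 (SD, n = 2 each). Of the 8 TSS intervals of the 7 genes 3 were at Otx2, and of the 93 distal intervals 25 were at Six3. With only the 5′ end of each gene as its start these ratios were 3.13 and 6.79, and with counts per interval 8.42 and 19.2.

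Of the 6 genes with a TSS interval, 5 had a distal interval denser than the promoter (Emx2, Otx2, En2, Gbx2 and Phox2a). This was so for 25.5% of the 11713 protein-coding genes with both kinds of interval, and for 33.6% of the 6634 of them with at least 5 intervals. By normalised counts in place of density, only Phox2a had a distal interval above its summed TSS intervals (1176 against 231). The highest distal counts were below the TSS sums at Emx2 (627 against 1216), Otx2 (700.5 against 907), En2 (1019 against 1322) and Gbx2 (965 against 2434). The share of all genes by counts was not taken. A gene with many intervals has more chances of a high one, and the 7 genes had between 5 and 25 intervals, against a median of 3 over all genes. Per 100 kb of sequence nearest to their starts the 7 genes had a median of 6.95 intervals, close to the 6.10 over all genes. Gbx2 (16.0) and En2 (13.0) were the densest in this measure and Egr2 (3.75) the sparsest.

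**Figure D3:**
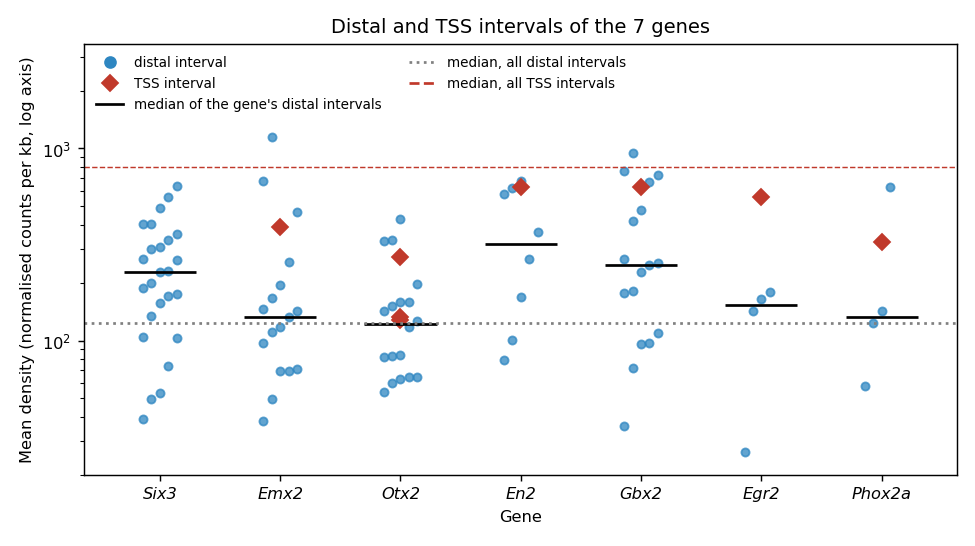
Mean density in normalised counts per kb (vertical axis, log scale) of each distal interval (blue circles) and TSS interval (red diamonds) for the 7 genes (horizontal axis), with a black bar for the median of each gene's distal intervals, a dotted line at the median of all distal intervals (123) and a dashed line at the median of all TSS intervals (799). Every TSS interval lies under the dashed line, and 2 distal intervals, of Emx2 and Gbx2, lie over it (3.16% of all distal intervals do).

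Intergenic sequence held 46 of the 93 distal intervals (49.5%, against 40.2% of all distal intervals), and introns held 27 (29.0%, against 46.2%). Exons of non-coding genes held 8 (8.60%, against 3.86%), among them Six3os1 and Otx2os1. Coding exons held 7 (7.53%, against 7.80%) and UTRs held 5 (5.38%, against 1.91%). The intervals were also rich in CpG. By CpG island criteria (at least 200 bp, GC of at least 50% and an observed to expected CpG ratio of at least 0.6), 15 of the 93 distal intervals qualified (16.1%, against 2.01% of all distal intervals). Of these 15, 6 were at Six3, 3 at Gbx2, 2 each at Emx2 and Otx2 and 1 each at En2 and Phox2a. They lay from 0.16 kb (Otx2) to 126 kb (Six3) from a start, most of them within 10 kb. The 2.01% covers distal intervals at any distance. Of the 8 TSS intervals, 6 qualified, against 64.5% of all TSS intervals. These TSS intervals were long, with a median of 2107 bp against 1212 bp.

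Short sequence motifs were counted in the central 300 bases of each interval, on both strands and with overlaps between motifs allowed. TAATTA, a core that many homeodomain proteins recognise, was present in 14 of the 101 windows (13.9%), against 7.01% of all windows. The 14 were 4 at Otx2, 3 each at Six3 and Emx2 and 2 each at Gbx2 and Phox2a. TAATCC, the form preferred by Otx proteins, was in 8 windows (7.92%, against 7.62%). The E-box CAGCTG was in 20 (19.8%, against 22.2%) and the nuclear receptor half-site AGGTCA, which retinoic acid receptors can use, in 18 (17.8%, against 21.0%). Of the Sox-type motifs, ACAAAG was in 28 windows (27.7%, against 31.3%) and the other form, ACAATG, in 15 (14.9%, against 21.3%). TGTTTAC, a forkhead motif, was in 3 (2.97%, against 4.38%), and TGATTNAT, a Hox and Pbx motif, also in 3 (2.97%, against 6.39%). In the sequences shown above, the Emx2 element held the half-site and the other Sox form, and the Gbx2 element held only the half-site. The Otx2 element held both Sox forms, the first of them overlapping a forkhead match. The En2 element held the half-site and 2 matches to the first Sox form, and the Six3 promoter held none of the 8. A match of letters is not a binding site.

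Genes with related roles gave the frame for these values. In the neural progenitor list all 5 genes had a TSS interval, as did 66.7% of all protein-coding genes. The study proposes that elements of target genes are accessible in progenitors whether or not the gene is active. The list therefore could not check the label of the cells. Promoter densities were 613 ± 3.69 for Pax6, 862 ± 25.8 for Sox2 and 946 ± 23.2 for Olig2 (SD, n = 2 each). They were 1452 ± 27.3 for Nkx6-1 and 1498 ± 73.3 for Sox1 (SD, n = 2 each). En2 and Gbx2 were close to Pax6, and all 7 genes were below Sox2. In the forebrain list the median was 347, from 195 ± 4.96 for Hesx1 to 678 ± 37.0 for Lhx2 (SD, n = 2 each), and all 6 genes had a TSS interval. Of the 3 genes shared by the forebrain and midbrain, Barhl1 had no TSS interval, although an interval lay 97 bases from one of its starts, and Otx1 had the highest value, 527 ± 38.9 (SD, n = 2). The midbrain-hindbrain boundary list had a median of 423, from 212 ± 19.1 for Wnt1 to 875 ± 31.2 for Pax5 (SD, n = 2 each).

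Of the hindbrain list, the 4 genes reported here all had a TSS interval and lay above the median of the 7 genes, with a median of 548 and a lowest value of 458 ± 46.6 (SD, n = 2) for Hoxb1. The cervical and thoracic Hox list, which marks the spinal cord, had a median of 458. It ranged from Hoxc5, which had no TSS interval but one 33 bases away, and Hoxc9 with 162 ± 26.3 to Hoxb6 with 768 ± 32.4 (SD, n = 2 each). The lists differ in size and were compared by their medians, with no test.

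The libraries were then compared at these intervals. A two-sided exact binomial test with Benjamini-Hochberg adjustment over all 119502 intervals called 0 of the 101 intervals at an adjusted p under 0.01, where it called 0% of all intervals. The smallest adjusted p of the 101 in this exact test was 0.318. The test covers counting error only and takes fragments as independent. The chi-square per degree of freedom between the libraries was 1.43 for these intervals and 1.37 for all, where counting error alone gives 1. At an unadjusted p under 0.05 there were 8 (7.92%), against 7.84% of all intervals, and with edgeR TMM factors 0 of the 101 were called. None of the 56 stronger intervals (mean over 100) had a 2-fold difference between its libraries. The SD of their log2 ratio was 0.15, against 0.14 over all intervals of that strength. The largest differences were at Emx2, 171 kb downstream at chr19:59630246-59631371, with 107 and 157 counts (log2 ratio 0.55), and at Otx2, in coding sequence at chr14:48662064-48662712, with 115 and 90 counts (log2 ratio -0.35). The third was again at Emx2, 165 kb downstream at chr19:59624214-59624615, with 91 and 115 counts (log2 ratio 0.34).

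Of the 8 TSS intervals, 7 had a mean normalised count above 100, and all 7 were lower in replicate 2, as were 67.9% of all TSS intervals above that limit. Among the 56 stronger intervals, 35 (62.5%) were lower in replicate 2, against 52.2% of all. The median log2 ratio was -0.02 over the 56 and -0.005 over all intervals of that strength. It was -0.03 over all TSS intervals of that strength, where the 7 TSS intervals ran from -0.31 (Otx2) to -0.01 (Egr2).

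**Figure D4:**
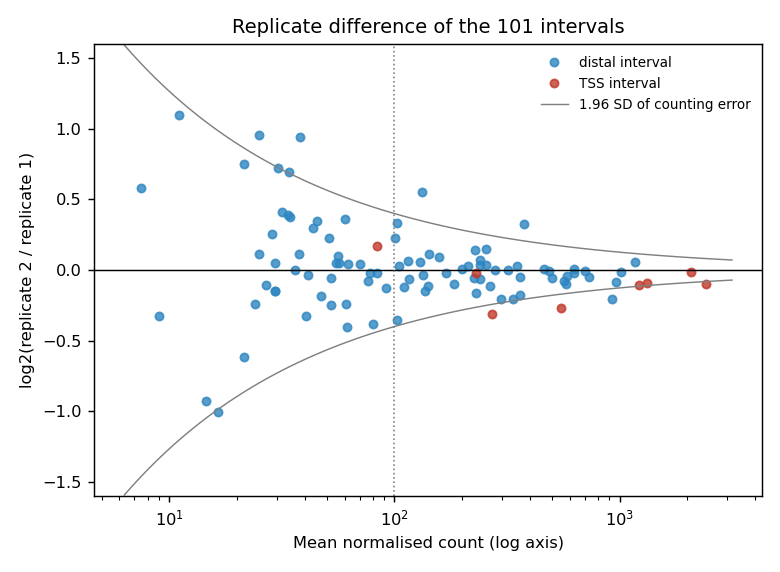
Log2 ratio of replicate 2 to replicate 1 (vertical axis) against the mean normalised count (horizontal axis, log scale) for the 101 intervals, with red for TSS intervals, blue for distal intervals, grey curves for the range of counting error and a dotted vertical line at 100 counts. Right of the dotted line the largest distance from 0 among the 56 intervals is 0.55, and the spread widens to the left.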

How the data were processed

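ATAC-seq on live cells, where Tn5 transposase tags accessible DNA, used 50000 sorted cells for each of 2 replicates. Read pairs were aligned to mm10 with the nf-core atacseq pipeline (1.2.0), with MACS peaks at a false discovery rate of 1e-05 and a consensus of peaks found in at least 2 replicates. The authors deposited raw fragment counts per consensus interval. Per the file headers these came from featureCounts 2.0.1, which counted a fragment in every interval that it overlapped by a fraction of at least 0.2, so that 1 fragment can enter more than 1 interval. The other 3 count columns matched no sample and were not used, although they helped to define the intervals.

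Size factors from DESeq2 (1.42.0) scaled the counts. An interval was assigned to the gene with the nearest start of a protein-coding transcript in GENCODE M21 (GRCm38, the same assembly as mm10), measured from its edge. A distal interval overlapped no such start. Promoter density was the summed count of a gene's TSS intervals per kb, or 0 without one. The exact binomial test compared the 2 counts of each interval with the share given by the size factors, with Benjamini-Hochberg adjustment over all intervals. It compares libraries, not conditions. It was also run on simulated counts that held counting error only, the spread that the test assumes. That run cannot show how the test behaves on the spread between these libraries. The genes, lists and tests were chosen with earlier results of these data known. Named intervals are each gene's TSS intervals, its 3 densest distal intervals, the 3 with the largest log2 ratio among the intervals averaging over 100, and the farthest. From the lists, the genes with the highest and lowest promoter density or no TSS interval are named. The remaining progenitor genes, the Six3 interval nearest to a start and the Gbx2 interval 3.59 kb upstream were named outside this rule. Values of 2 listed genes and the distal windows of 3 genes are not reported here. Alternatives used edgeR (4.0.16) TMM factors, interval totals, other definitions of a TSS, other count limits, and each replicate left out. Another put counts in place of density, per interval for the TSS to distal ratio and summed over a gene's TSS intervals for promoters. Sequences came from the RefSeq GRCm38.p6 genome and promoter table, in which 6 of the 7 genes matched. Python 3.11.15, scipy 1.17.1 and statsmodels 0.14.6 were used.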

Additional observations from a re-analysis of the deposited data

How the results depend on the processing

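No paired analysis was possible because all samples belong to a single group. Changes are given where a value shifted beyond its SD between libraries or a count shifted over 1.5 times. The count of intervals called between the libraries rose from 0 to 6 with TMM factors, none of them among the 101, and stayed at 0 with interval totals and with a mean normalised count of at least 10. The number of genes above the median promoter density was 3 under 6 of the 7 alternatives. It was 5 with the summed count of a gene's TSS intervals, which also changed the median over the genes from 390 to 1216. The TSS to distal ratio of 2.17 became 3.13 with only the 5′ end of each gene as its start and 8.42 with counts per interval, and went from 2.08 to 2.27 when each replicate was left out. The share of intervals over 100 counts, 55.4%, became 72.3% with a limit of 50 and 39.6% with a limit of 200, and ran from 53.5% to 54.5% when each replicate was left out. The number of nearest intervals, 101, was 128 with the 5′ end of each gene, 101 from the midpoint and 99 with a mean of at least 10. Six3 had a TSS interval only when intervals within 1 kb counted. Promoter densities of single genes otherwise changed for Otx2 with the 5′ end and for the 6 genes with a TSS interval with summed counts, by construction. Both libraries together give the SDs, so a value from 1 library carries none. Intervals with few counts are limited by depth.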
